A study of Mus musculus with 9 samples.

Results

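The immediate-early AP-1 factors are described here as a set of 10 genes, chosen by name: the Fos family (Fos, Fosb, Fosl1, Fosl2), the Jun family (Jun, Junb, Jund), the related factor Atf3, and Egr1 and Ier2, which are induced alongside them. All 10 were found among the 24594 genes of the deposited count table by Entrez ID, and all 10 passed the filter on low counts that left 13928 genes for testing. The cells are BG2, a line from an endpoint tumour of an MMTV-NIC mouse, in which the MMTV promoter drives Neu and, through an internal ribosome entry site, Cre. The tested groups are 2 Sox10 knockout clones, clone 1 and clone 2, grown out of a bulk CRISPR population that was made with guides against exon 3 of the Sox10 reading frame. Their control is the wild-type BG2 population, a bulk sample whose library names hold NTC. All groups carry the MMTV-NIC transgene and are labelled as mammary epithelial. Each group has 3 technical replicates of stranded polyA RNA, so each knockout group stands for 1 clone, and the p-values speak only of how far libraries of 1 group vary.

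AP-1 is a dimer of basic leucine zipper proteins, usually a Fos protein with a Jun protein or a pair of Jun proteins, that binds short palindromic sites in promoters and enhancers. Its genes are called immediate-early because growth factors, stress and handling switch several of them on through existing kinases and factors such as Erk, Srf and Creb, without new protein synthesis, and because their short-lived transcripts then decay quickly. In mammary epithelium and its tumours AP-1 lies downstream of receptor tyrosine kinases such as Erbb2, and its composition differs between cell states.

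The promoters of 4 factors are shown because these factors moved in different ways: Fosb was the factor that fell furthest, Jun was higher in both clones, Atf3 went opposite ways in the clones and Fos fell in 1 of them. The sequences are the 250 bases before the start of each gene in RefSeq (GRCm38.p6), on the gene's own strand: Fosb at chr7:19310046-19310295 (minus strand), Fos at chr12:85473640-85473889 (plus strand), Jun at chr4:95052223-95052472 (minus strand) and Atf3 at chr1:191183334-191183583 (minus strand). The RefSeq start used for Atf3 lies inside the longer GENCODE model of the gene, so its positions below hold for that start only. Capitals mark the matches of the motifs searched on both strands: the CRE core TGACGT, to which Creb and Atf proteins bind, the AP-1 site TGANTCA, the variant site TGACATCA described in the JUN promoter, the CArG box of Srf, and the Sox site ACAAAG or ACAATG.
Fosb: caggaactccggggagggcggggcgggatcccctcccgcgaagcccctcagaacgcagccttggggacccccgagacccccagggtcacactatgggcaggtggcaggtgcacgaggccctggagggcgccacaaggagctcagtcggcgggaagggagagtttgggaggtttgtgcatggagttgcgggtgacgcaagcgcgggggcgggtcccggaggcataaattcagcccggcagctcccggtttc
Fos: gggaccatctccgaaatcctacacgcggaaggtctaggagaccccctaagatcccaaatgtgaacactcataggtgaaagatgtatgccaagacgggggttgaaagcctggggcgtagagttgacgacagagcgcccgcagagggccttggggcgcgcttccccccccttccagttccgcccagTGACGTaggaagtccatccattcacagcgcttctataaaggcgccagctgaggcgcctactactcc
Jun: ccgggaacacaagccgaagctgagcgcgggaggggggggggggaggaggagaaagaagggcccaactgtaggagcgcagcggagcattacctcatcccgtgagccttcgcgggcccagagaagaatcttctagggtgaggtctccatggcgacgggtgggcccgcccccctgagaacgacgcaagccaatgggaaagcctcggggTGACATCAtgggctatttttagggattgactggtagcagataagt
Atf3: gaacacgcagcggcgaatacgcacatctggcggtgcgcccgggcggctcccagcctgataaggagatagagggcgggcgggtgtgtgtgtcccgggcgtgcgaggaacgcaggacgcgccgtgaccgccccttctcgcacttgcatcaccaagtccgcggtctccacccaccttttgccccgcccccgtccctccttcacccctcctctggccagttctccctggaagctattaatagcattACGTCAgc

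The CRE core stood at -66 to -61 from the start of Fos and, on the opposite strand, at -8 to -3 from that of Atf3. Of all 32851 promoter windows of this length, 6.5% held it. Jun held the variant site at -45 to -38, as did 2.9% of windows. The Fosb window held none of the 5 motifs. Windows were also at hand for Fosl2, Junb and Jund. Among all 7 factors with a window, none held an AP-1 site (6.7% of windows) or a CArG box (1.5%) within these 250 bases. Sites further upstream were not searched, and Fosl1, Egr1 and Ier2 had no window. Of the 7, Jund alone held a Sox site, at -141 to -136 (25.2% of windows). Its RefSeq window lies away from the GENCODE start of the gene. The Fosl2 window lies inside its GENCODE model. No match overlapped another.

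A second set of sequences bears on the short life of these transcripts. The nonamer TTATTTATT, a form of the AU-rich element that marks transcripts for decay, occurred once in the 3′ untranslated region of Fos and once in that of Fosl2, in GENCODE transcripts on GRCm38, and 7.2% of 20619 genes held it. Each site is given with its flanks, the nonamer in capitals.
Fos: tgttttcaatTTATTTATTaagatggattc
Fosl2: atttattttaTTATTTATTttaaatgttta

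The shorter pentamer ATTTA, found in 63.0% of genes, occurred 8 times in the 3′ untranslated region of Fosl2, 4 times each in Fos and Jun, 3 times in Atf3, and 2 times each in Junb and Egr1. Fosb, Fosl1 and Jund held 1 each and Ier2 held 0. These regions differ in length. Per kilobase, Fos held 4.91, Junb 4.12, Jun 3.24, Atf3 2.53 and Jund 1.88. Fosl2, whose region spans 4653 bases, held 1.72, followed by Egr1 (1.64), Fosl1 (1.57) and Fosb (0.47). The 2 nonamer holders moved apart in clone 1, where Fosl2 rose and Fos fell.

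Libraries held 65805296 to 83282841 counts, so each factor rested on at least 20 counts in every library. Levels below are CPM, counts relative to library size as scaled by TMM, given for replicates 1, 2 and 3 in that order. Fold changes, standard errors (SE) and adjusted p-values come from edgeR's quasi-likelihood test over all 9 libraries, with Benjamini-Hochberg adjustment over the 13928 genes, and a call is an adjusted p under 0.05. Sox10 itself had 0, 6 and 0 counts in clone 1 and 0, 2 and 2 counts in clone 2, against 16660, 21437 and 26038 counts in wild-type cells. The labelled cell type did not hold in every group. Of 9 mammary epithelial markers, 8 fell in both clones, as did 29.4% of all tested genes. Over all tested genes 37.9% rose in clone 1 and 37.3% in clone 2, for the markers below. Epcam had 7 counts over the clone 1 libraries and 0 over the clone 2 libraries, against 147918 over the wild-type libraries. The keratins Krt8 and Krt18 fell but stayed at 480.5 CPM or more on average in each clone, and Erbb2 rose in both. The Neu transgene is itself an Erbb2 gene, and how far its reads were counted as Erbb2 was not tested. Of 8 fibroblast markers, 5 were tested, of which 5 rose in clone 1 and 4 in clone 2, with summed levels of 200.7 to 204.6 CPM in clone 1, 131.0 to 144.2 CPM in clone 2 and 9.851 to 11.58 CPM in wild-type cells, while Thy1 and Lum had 0 counts in every library. Most of that sum was Pdgfra, at 172.3 CPM in clone 1 and 107.2 CPM in clone 2, against 7.83 CPM in wild-type cells, and Fbln1, at 24.1, 26.9 and 0.851 CPM in the same order. The collagen genes Col1a1 and Col1a2 averaged at most 2.95 CPM in any group, and Dcn had 30 counts in clone 1 and 0 in clone 2, against 2 in wild-type cells. Immune markers summed to 9.326 to 11.27 CPM in clone 1, 43.5 to 45.94 CPM in clone 2 and 7.136 to 11.94 CPM in wild-type cells. There 2 of 8 were tested, 1 rising in clone 1 and 2 in clone 2, and Cd3e had 0 counts throughout. These were Cd68, at 9.80 CPM in clone 1, 38.6 CPM in clone 2 and 10.1 CPM in wild-type cells, and Lyz2. Lyz2 averaged 0.279, 6.36 and 0.0277 CPM in the same order. Ptprc had 0 counts in each clone and 8 in wild-type cells. Endothelial markers, of which 2 of 6 were tested and rose in both clones, summed to 15.91 to 18.15 CPM in clone 1, 0.8161 to 1.086 CPM in clone 2 and 0.0 to 0.1081 CPM in wild-type cells, and Kdr made up 16.2 CPM of this in clone 1. Adipocyte markers, with 1 of 5 tested and higher in both, summed to 3.439 to 4.398 CPM in clone 1, 7.93 to 9.902 CPM in clone 2 and 0.5542 to 0.7291 CPM in wild-type cells. Nearly all of this was Fabp4, at 3.88, 8.63 and 0.603 CPM in the same order, and Cidec had 0 counts throughout. The part of these shifts in cell identity in the AP-1 results was not tested, and in bulk RNA fewer cells with a transcript and less of it per cell cannot be told apart.

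Against wild-type cells, the factors did not move as a block. In clone 1, 5 rose (Fosl2, Jun, Junb, Egr1, Ier2) and 5 fell (Fosb, Atf3, Fos, Jund, Fosl1), where 37.9% of all tested genes rose and 38.6% fell. In clone 2, 3 rose (Atf3, Fosl2, Jun), 3 fell (Fosb, Jund, Ier2) and 4 were not called, where 37.3% of all tested genes rose and 37.1% fell. With 76.5% of genes called in clone 1 and 74.4% in clone 2, being called is common in these libraries and says little of the factors as a set. Their median absolute log2 fold change was 0.58 in clone 1 and 0.56 in clone 2, beside 0.62 and 0.58 over all tested genes. Fosl2 and Jun rose in both clones (28.7% of tested genes did), Fosb and Jund fell in both (29.4%), and Atf3 and Ier2 were called in opposite directions (4.79%). These shares are counted per gene, with both clones set against the same wild-type libraries.

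**Figure D1:**
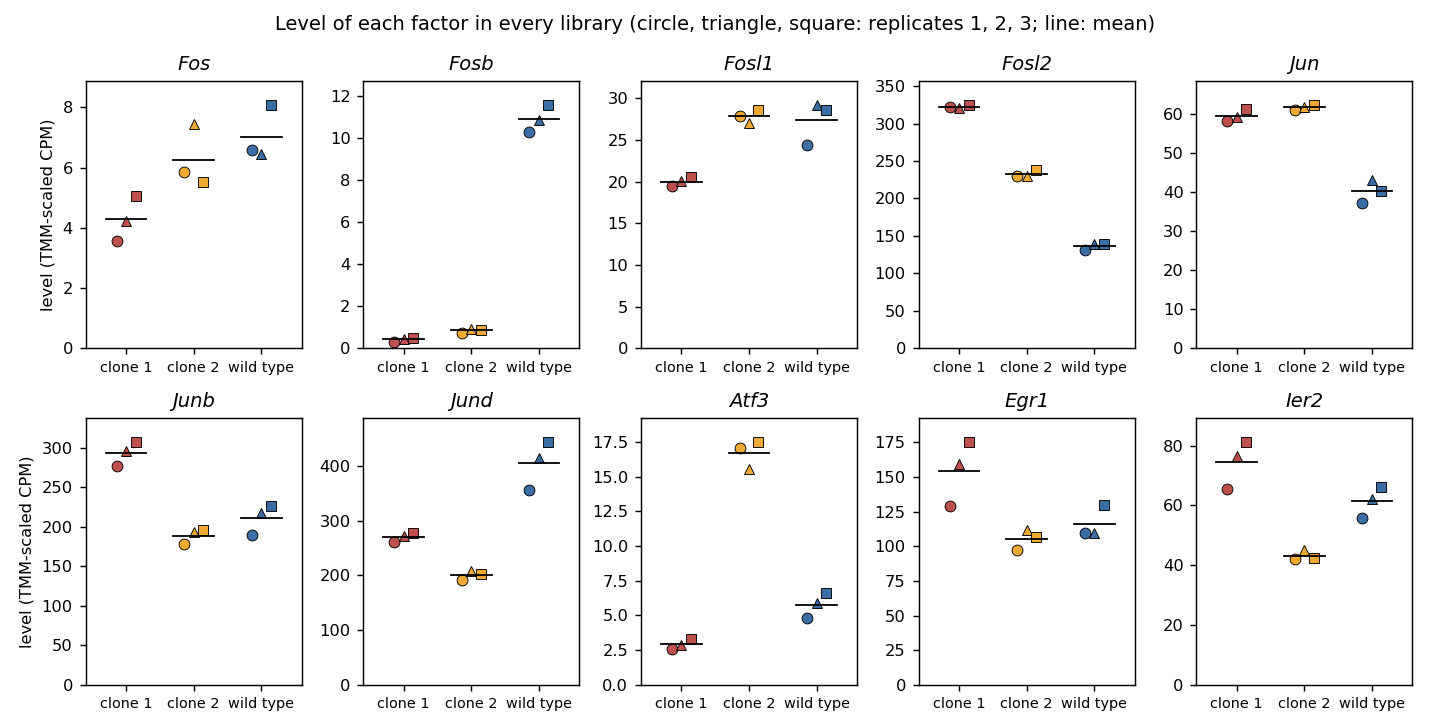
Level of each of the 10 factors in every library, in TMM-scaled CPM, for clone 1, clone 2 and wild-type cells; points are replicates 1 to 3 and lines are means (n = 3). Fosb is below 1 CPM in both clones and above 10 CPM in wild-type cells, Fosl2 is highest in clone 1 and lowest in wild-type cells, and Atf3 is highest in clone 2.

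**Figure D2:**
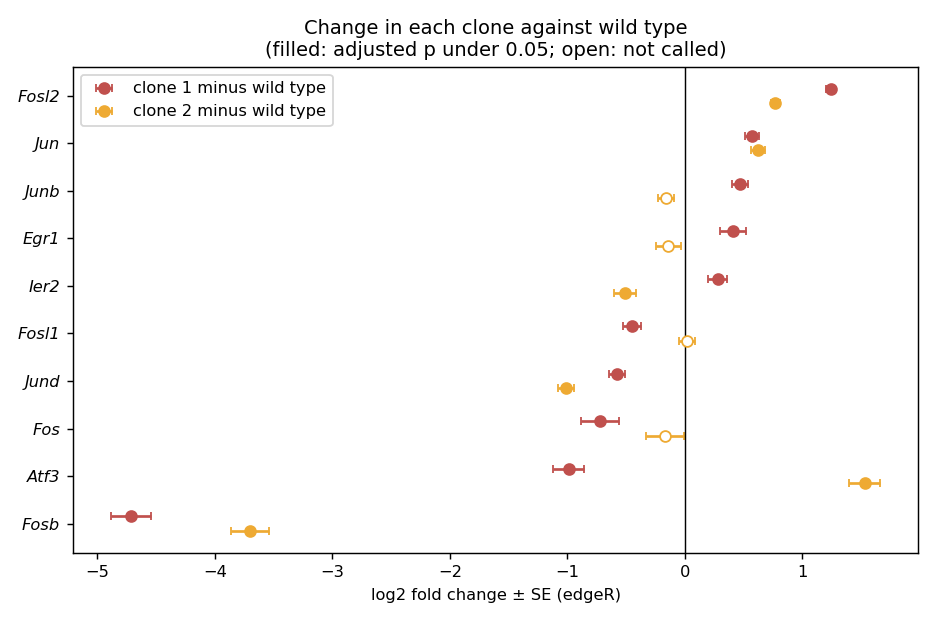
Log2 fold change of each factor in clone 1 and clone 2 against wild-type cells, with bars for the SE (edgeR, n = 3 libraries per group); filled points passed an adjusted p of 0.05. Fosl2 and Jun lie above 0 and Fosb and Jund below 0 in both clones, while Atf3 and Ier2 lie on opposite sides.

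Fosb (Entrez ID 14282; chromosome 7, 19302696 to 19310051, minus strand, GRCm38, as all coordinates here) encodes a Fos protein with a transactivation domain, and a truncated, stable splice form of it is known for building up in neurons under repeated stimulation. It had 0.3033, 0.4461 and 0.4872 CPM in clone 1 and 0.7201, 0.9267 and 0.8685 CPM in clone 2, against 10.27, 10.85 and 11.55 CPM in wild-type cells. Every knockout library lay below every wild-type library, and every clone 1 library below every clone 2 library. Fosb was 26.2-fold lower in clone 1 (log2 fold change -4.71, SE 0.17, edgeR adjusted p = 4.56e-10). It was 13.0-fold lower in clone 2 (log2 fold change -3.70, SE 0.16, edgeR adjusted p = 1.63e-09). Its remaining counts were few, 88 over the clone 1 libraries and 198 over the clone 2 libraries, against 2449 over the wild-type libraries. Between the clones it was higher in clone 2 by 1.01 on the log2 scale (SE 0.19, edgeR adjusted p = 0.00102).

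Fosl2 (Entrez ID 14284; chromosome 5, 32135801 to 32157842, plus strand) encodes Fra-2, a Fos protein that lacks the strong transactivation domain of Fos. It had 322.8, 321.1 and 324.5 CPM in clone 1 and 230.4, 230.0 and 238.2 CPM in clone 2, against 131.7, 139.3 and 138.8 CPM in wild-type cells. The 3 groups did not overlap, and clone 1 was the highest. Its level was 2.363-fold higher in clone 1 (log2 fold change 1.24, SE 0.04, edgeR adjusted p = 2.51e-10) and 1.705-fold higher in clone 2 (log2 fold change 0.77, SE 0.04, edgeR adjusted p = 1.52e-08). The log2 fold change of clone 2 against clone 1 was -0.47 (edgeR adjusted p = 2.98e-06).

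Fos (Entrez ID 14281; chromosome 12, 85473890 to 85477273, plus strand), the founding member of the family and the textbook immediate-early gene, was low in these cells. It had 3.564, 4.238 and 5.044 CPM in clone 1 and 5.845, 7.44 and 5.518 CPM in clone 2, against 6.572, 6.448 and 8.07 CPM in wild-type cells. All clone 1 libraries were below all wild-type libraries, whereas clone 2 and wild-type libraries overlapped. Fos fell by 0.72 on the log2 scale in clone 1 (SE 0.16, edgeR adjusted p = 0.00177). In clone 2 the log2 fold change of -0.17 did not pass (95% interval -0.52 to 0.18, edgeR adjusted p = 0.354). Clone 2 was higher than clone 1 by 0.55 on the log2 scale (SE 0.16, edgeR adjusted p = 0.0132), a call that was lost without clone 1 replicate 1 (0.43, edgeR adjusted p = 0.0501) or clone 2 replicate 2 (0.38, edgeR adjusted p = 0.0707).

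Fosl1 (Entrez ID 14283; chromosome 19, 5447547 to 5455946, plus strand) encodes Fra-1, a Fos protein whose level follows sustained Erk signalling and which is known for its part in invasive breast tumour cells. It had 19.43, 20.05 and 20.58 CPM in clone 1 and 27.89, 27.06 and 28.57 CPM in clone 2, against 24.4, 29.18 and 28.63 CPM in wild-type cells. Clone 1 was below every other library, and clone 2 lay within the range of the wild-type libraries. Fosl1 fell by 0.45 on the log2 scale in clone 1 (SE 0.08, edgeR adjusted p = 0.000189). In clone 2 the log2 fold change was 0.02 (95% interval -0.14 to 0.19, edgeR adjusted p = 0.795), and its sign turned in 3 of the alternatives. The gene model of Fosl1 overlaps that of Ccdc85b on the opposite strand, whose log2 fold change was -1.01 in clone 1 and -0.60 in clone 2, and since no source used here gives the strand setting of the counting, reads of the 2 genes cannot be told apart there.

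Because a CPM value grows with transcript length, levels were compared between genes per kilobase of transcript. The length was that of 1 GENCODE transcript per gene, a principal one where marked and otherwise the longest. Merged exons are longer for several genes: 2301 against 1809 bases for Junb, 9680 against 6537 for Fosl2 and 6243 against 3782 for Fosb. Jund had 1668 bases either way. The annotation of the counting is not given, so levels compared between genes, and shares, hold for these lengths only. In wild-type cells the Fos family ranked Fosl2 (20.9 ± 0.65 CPM per kb), Fosl1 (14.7 ± 1.41), Fos (3.34 ± 0.43) and Fosb (2.88 ± 0.17; mean ± SD, n = 3), and the ranges of Fos and Fosb lay next to each other without overlap. Fosl2 made up 79.3% ± 0.83 of the family's summed level in clone 1 and 66.3% ± 0.46 in clone 2, against 50.0% ± 1.41 in wild-type cells (SD, n = 3 each). Fosl1 made up 17.2% ± 0.28 in clone 1, 27.8% ± 0.56 in clone 2 and 35.1% ± 1.52 in wild-type cells. The shares of Fosb were 0.175% in clone 1, 0.412% in clone 2 and 6.89% in wild-type cells, and those of Fos were 3.26%, 5.54% and 7.97% in the same order. The summed level itself was 62.3 ± 0.84 CPM per kb in clone 1 and 53.8 ± 0.76 in clone 2, against 41.8 ± 2.39 in wild-type cells (SD, n = 3 each). In each clone more of the Fos family RNA was therefore Fosl2, and the 3 groups did not overlap in its share.

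Jun (Entrez ID 16476; chromosome 4, 95049034 to 95052222, minus strand) encodes the main partner of Fos and a target of Jnk, which phosphorylates it. It had 58.31, 59.36 and 61.44 CPM in clone 1 and 61.15, 61.98 and 62.33 CPM in clone 2, against 37.34, 43.09 and 40.39 CPM in wild-type cells. All 6 knockout libraries were above the wild-type libraries, and the 2 clones overlapped. Jun was 1.482-fold higher in clone 1 (log2 fold change 0.57, SE 0.06, edgeR adjusted p = 4e-06) and 1.535-fold higher in clone 2 (0.62, SE 0.06, edgeR adjusted p = 1.97e-06). It was the only factor of the 10 not called between the clones, where the log2 fold change of 0.05 had a 95% interval of -0.08 to 0.18 (edgeR adjusted p = 0.488).

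Jund (Entrez ID 16478; chromosome 8, 70698949 to 70700616, plus strand), known as the Jun gene expressed most steadily in resting cells, moved the other way. It had 260.5, 272.1 and 276.7 CPM in clone 1 and 190.6, 207.7 and 203.1 CPM in clone 2, against 355.4, 414.5 and 443.5 CPM in wild-type cells. The groups did not overlap, with clone 2 the lowest. Jund was 1.499-fold lower in clone 1 (log2 fold change -0.58, SE 0.07, edgeR adjusted p = 2.11e-05) and 2.018-fold lower in clone 2 (-1.01, SE 0.07, edgeR adjusted p = 2e-07). The log2 fold change of clone 2 against clone 1 was -0.43 (edgeR adjusted p = 0.000467).

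Junb (Entrez ID 16477; chromosome 8, 84974484 to 84978718, minus strand), whose protein is a weaker activator than Jun at many sites and can oppose it, split the clones. It had 277.3, 296.0 and 307.4 CPM in clone 1 and 178.3, 193.0 and 195.8 CPM in clone 2, against 190.2, 217.5 and 226.2 CPM in wild-type cells. Clone 1 was above all other libraries, and clone 2 overlapped with wild-type cells at its upper end. Junb rose in clone 1 by 0.47 on the log2 scale (SE 0.07, edgeR adjusted p = 7.09e-05). In clone 2 the log2 fold change was -0.16 (95% interval -0.31 to -0.01) and missed the threshold (edgeR adjusted p = 0.0552). It passed with the replicate number as a block (edgeR adjusted p = 0.000574), and clone 2 was lower in 3 of 3 same-numbered pairs. The pairing of replicates 2 and 3 was not settled, however, and the block raised the genes called in clone 2 from 10367 to 11257. Clone 2 against clone 1 gave -0.63 (edgeR adjusted p = 1.57e-05). In GENCODE the model of Junb overlaps that of Prdx2 on the opposite strand, which is in the count table with up to 16108 counts in a library. The same limit on strand thus holds for Junb, though in RefSeq these models do not overlap. GENCODE also places Junos over Jun, Gm11175 over Jund and Gm24748 over Atf3, each on the opposite strand. None of these is in the count table, and whether their reads were counted to the factors was not tested.

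Within the Jun family, Jund held 47.2% ± 0.47 of the summed level per kilobase in clone 1 and 49.2% ± 0.44 in clone 2, against 65.2% ± 0.66 in wild-type cells (SD, n = 3 each). Junb held 47.3% ± 0.54 in clone 1, 42.8% ± 0.49 in clone 2 and 31.4% ± 0.44 in wild-type cells. Jun held the least, with 5.46% ± 0.10, 7.95% ± 0.27 and 3.41% ± 0.23 in the same order. With these transcript lengths, Junb and Jund were level in clone 1, at 162.3 ± 8.4 and 161.7 ± 5.03 CPM per kb with overlapping ranges. Wild-type cells had 116.8 ± 10.4 CPM per kb of Junb and 242.5 ± 26.9 of Jund (SD, n = 3). By merged exons Junb is longer than this and Jund is not, so their being level rests on the length chosen. The summed Jun level was 342.7 ± 13.9 CPM per kb in clone 1 and 244.1 ± 10.4 in clone 2, against 371.9 ± 37.9 in wild-type cells, and clone 2 alone was clear of the wild-type range.

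**Figure D3:**
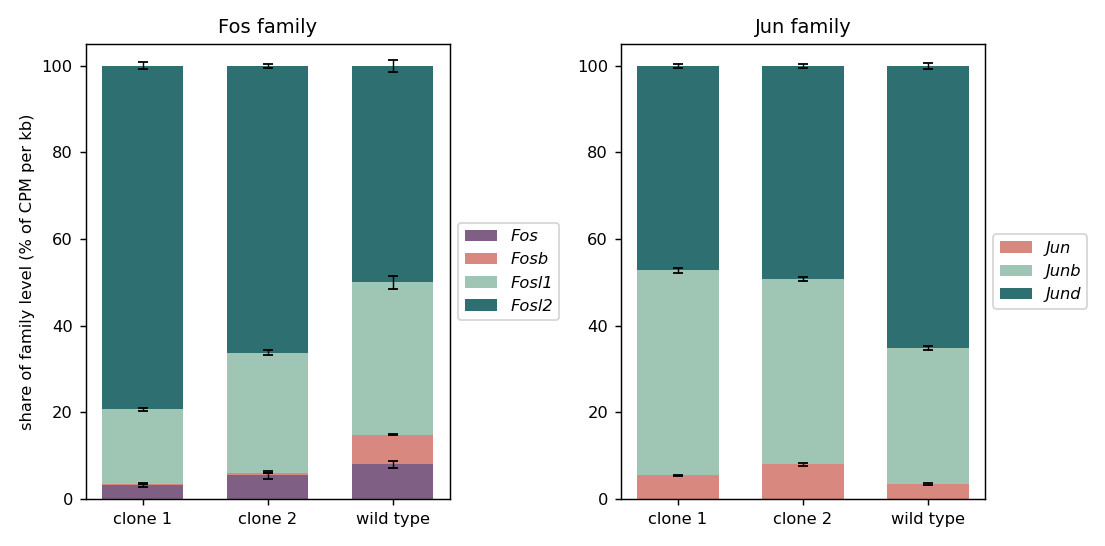
Share of each gene in the summed level of its family, in percent of CPM per kilobase of transcript, for the Fos family (left) and the Jun family (right) in clone 1, clone 2 and wild-type cells; bars are means and error bars the SD of each share (n = 3). The Fosl2 share is 79.3% in clone 1, 66.3% in clone 2 and 50.0% in wild-type cells, and the Jund share is 47.2%, 49.2% and 65.2%.

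Atf3 (Entrez ID 11910; chromosome 1, 191170296 to 191218039, minus strand), a stress-induced factor that represses transcription as a homodimer and also pairs with Jun proteins, differed most between the clones. It had 2.593, 2.861 and 3.267 CPM in clone 1 and 17.1, 15.56 and 17.5 CPM in clone 2, against 4.839, 5.867 and 6.599 CPM in wild-type cells. No group overlapped another, with wild-type cells between the clones. Atf3 was 1.985-fold lower in clone 1 (log2 fold change -0.99, SE 0.13, edgeR adjusted p = 3.6e-05). It was 2.894-fold higher in clone 2 (1.53, SE 0.13, edgeR adjusted p = 5.43e-07). Clone 2 stood 5.747-fold above clone 1 (2.52, SE 0.13, edgeR adjusted p = 5.44e-08).

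Ier2 (Entrez ID 15936; chromosome 8, 84661331 to 84662852, minus strand), a small immediate-early protein without a basic leucine zipper, also went opposite ways. It had 65.54, 76.44 and 81.17 CPM in clone 1 and 42.03, 45.22 and 42.24 CPM in clone 2, against 55.89, 62.02 and 66.15 CPM in wild-type cells. Clone 2 was clear of the other groups, while the lowest clone 1 library lay inside the wild-type range. Ier2 rose in clone 1 by 0.28 on the log2 scale (SE 0.08, edgeR adjusted p = 0.0111), and this call was lost without clone 1 replicate 3 (0.21, edgeR adjusted p = 0.0531). In clone 2 its log2 fold change was -0.51 (SE 0.09, edgeR adjusted p = 0.00022), and clone 2 against clone 1 gave -0.79 (edgeR adjusted p = 1.5e-05).

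Egr1 (Entrez ID 13653; chromosome 18, 34859823 to 34864984, plus strand), a zinc finger factor induced through Erk and Srf, had 128.8, 159.5 and 175.2 CPM in clone 1 and 97.34, 111.5 and 106.9 CPM in clone 2, against 109.3, 109.6 and 129.4 CPM in wild-type cells. Both clones overlapped with wild-type cells by 1 or more libraries but not with each other. Egr1 rose in clone 1 by 0.41 on the log2 scale (SE 0.11, edgeR adjusted p = 0.00436). In clone 2 the log2 fold change of -0.14 (95% interval -0.38 to 0.09) did not pass (edgeR adjusted p = 0.247), though it did with the replicate number as a block (edgeR adjusted p = 0.0202). With the block, 5 factors in all fell in clone 2, the additional ones being Junb and Egr1. The limit on the pairing given for Junb holds here as well. Clone 2 against clone 1 gave -0.55 (edgeR adjusted p = 0.00104).

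Between the clones, 4 factors were higher in clone 2 (Atf3, Fosb, Fos, Fosl1), 5 were lower (Ier2, Junb, Egr1, Fosl2, Jund) and 1, Jun, was not called. Over all tested genes 57.6% were called, 30.1% higher and 27.5% lower in clone 2. The median absolute log2 fold change between the clones was 0.55 for the 10 factors and 0.35 for all tested genes. Across the 9 libraries the log2 levels of Junb, Egr1 and Ier2 ran together (Pearson r 0.94 for Junb and Egr1, 0.90 for Junb and Ier2, 0.88 for Egr1 and Ier2), while Atf3 ran against Ier2 (-0.92) and Fosb against Fosl2 (-0.98). These values describe 3 groups of 3 libraries each, which share their group means and their scaling.

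Replicate 1 was the lowest library of its group for 9 of 10 factors in clone 1, 6 of 10 in clone 2 and 9 of 10 in wild-type cells, where 43.7%, 37.9% and 51.6% of all tested genes were lowest there. Without replicate 1 of every group, each call of a factor against wild-type cells or between the clones kept its direction and passed again, and Junb and Egr1 in clone 2 passed in addition (edgeR adjusted p = 0.000171 and 0.039). Taken pair by pair between libraries of the same number, every factor called against wild-type cells kept its sign in 3 of 3 pairs. Egr1 and Ier2 in clone 1 aside, the groups behind these calls did not overlap, so their pairs could not have differed in sign. The pairing of replicates 2 and 3 was itself not settled. The log2 ratio of Fosb ran between -5.08 and -4.57 for clone 1 and between -3.83 and -3.55 for clone 2, that of Fosl2 between 1.20 and 1.29 and between 0.72 and 0.81, and that of Ier2 between 0.23 and 0.30 and between -0.65 and -0.41. Fos, Fosl1 and Egr1, not called in clone 2, each had 1 pair above and 2 below wild-type cells there.

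The position of the factors was also read, since the median log2 fold change of several chromosomes lay away from 0. Jun rose on chromosome 4, whose 847 tested genes had a median log2 fold change of -0.49 in clone 1 and -0.53 in clone 2. Only 8 tested genes lay within 2 Mb of Jun, with medians of -0.56 and -0.59. Junb, Jund and Ier2 lie on chromosome 8, with medians of 0.35 in clone 1 and 0.15 in clone 2, against which Jund fell in both clones. Among tested genes within 2 Mb the medians were 0.25 in clone 1 and -0.12 in clone 2 for Junb, 0.25 and -0.06 for Jund, and 0.24 and -0.16 for Ier2. Ier2 in clone 1, at 0.28, thus stood near the median of its neighbours, and in clone 2 the medians near Junb and Ier2 had the sign of the factors themselves, opposite to that of the chromosome. Junb and Ier2 lie 311.6 kb apart. Fosl2 rose on chromosome 5, whose medians were 0.01 and 0.0. Fosb fell on chromosome 7, where the medians were -0.42 in both clones and those of the 47 tested genes within 2 Mb were -0.73 in clone 1 and -0.61 in clone 2. For Fosl1 in clone 1, its own -0.45 equalled the median of its chromosome 19, and for Egr1 in clone 1 the value of 0.41 stood beside a chromosome median of 0.36 and a median of 0.02 within 2 Mb. Fos, at -0.72 in clone 1 and -0.17 in clone 2, lies on chromosome 12 with medians of -0.38 and -0.51. Atf3, at -0.99 in clone 1 and 1.53 in clone 2, lies on chromosome 1 with medians of -0.29 and 0.05. Within 2 Mb of Atf3 the medians were -0.11 and 0.17, with the signs of the factor itself. The part of these shifts in the changes of single factors was not tested.

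**Figure D4:**
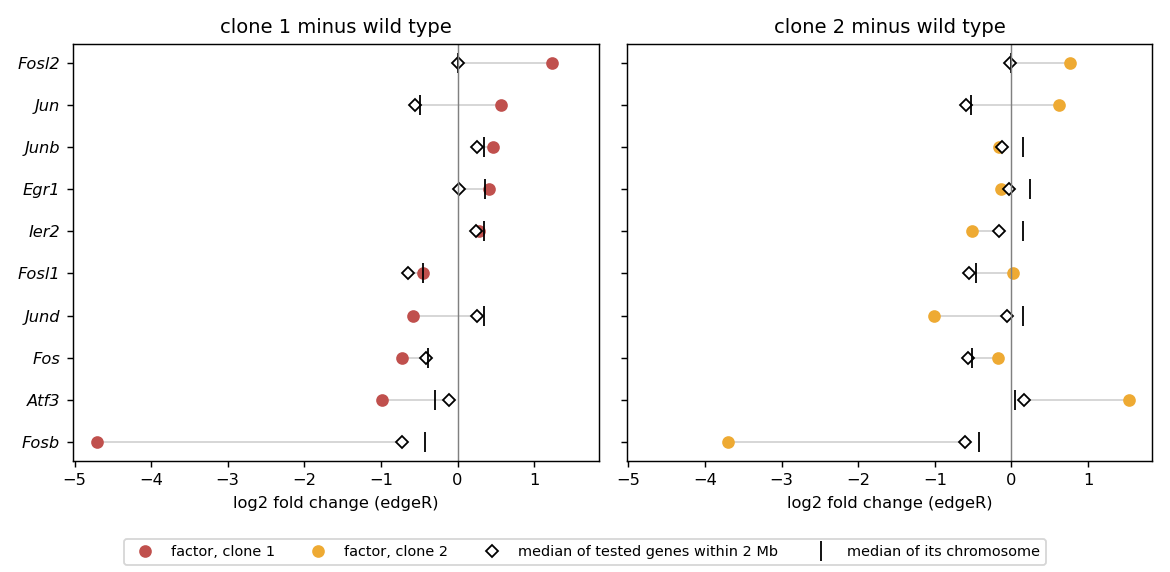
Log2 fold change (edgeR) of each factor (filled point) beside the median of tested genes within 2 Mb (diamond) and over its chromosome (bar), for clone 1 (left) and clone 2 (right) against wild-type cells. Jun lies above 0 while the median of its 8 tested neighbours lies below 0 in both clones. Fosb lies far below the median of its neighbours, and Fosl1 in clone 1 lies at the median of its chromosome.

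The other genes of the response were read from lists of genes by role. Counts of calls in these lists and in the heat shock list stand beside high shares over all tested genes. Those shares were 37.9% higher and 38.6% lower in clone 1, and 37.3% and 37.1% in clone 2. In both clones 28.7% were higher and 29.4% lower, and 4.79% were called in opposite directions. Of 29 other immediate-early genes, 28 were tested. Clone 1 had 20 higher and 7 lower, clone 2 had 17 higher and 9 lower, with median log2 fold changes of 0.60 and 0.48. The same 17 genes rose in both clones and 7 fell in both. Arc, an immediate-early gene best known from synapses, averaged 25.9 CPM in clone 1 and 23.1 CPM in clone 2, against 0.517 CPM in wild-type cells (log2 fold changes 5.63 and 5.47). Egr3, a relative of Egr1, rose by 3.07 and 2.07 on the log2 scale in clone 1 and clone 2. The nuclear receptor gene Nr4a3 had 77 counts in clone 1 and 76 in clone 2, against 2 over the wild-type libraries. Ccn2, a matricellular protein gene, averaged 40.4 CPM in clone 1 and 192.5 CPM in clone 2, against 683.3 CPM in wild-type cells (-4.08 and -1.83). Nr4a2 was the list's 1 gene called in opposite directions, at 0.33 in clone 1 and -0.88 in clone 2.

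Other basic leucine zipper proteins can pair with Fos or Jun. Of 16 listed, 13 were tested. Clone 1 had 9 higher and 3 lower, clone 2 had 8 higher and 4 lower, and 8 were higher and 3 lower in both, with medians of 0.43 and 0.57. Maf averaged 24.8 CPM in clone 1 and 4.01 CPM in clone 2, against 0.307 CPM in wild-type cells. Ddit3, the stress-response factor Chop, rose by 1.61 in clone 1 and 1.44 in clone 2 on the log2 scale. Creb5 had 2 counts over the clone 1 libraries and 203 over those of clone 2, against 1044 over the wild-type libraries. Atf7 was called in opposite directions, at 0.12 in clone 1 and -0.35 in clone 2.

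Of 21 kinases and factors upstream of these genes, all tested, clone 1 had 8 higher and 5 lower and clone 2 had 9 higher and 4 lower, with 5 higher and 3 lower in both and medians of 0.07 and 0.18. The number lower in clone 2 was 7 with the replicate block and 7 without replicate 1. The 3 that fell in both were Erk1 and kinases that Erk activates: Mapk3, which encodes Erk1, averaged 132.9 CPM in clone 1 and 130.4 CPM in clone 2, against 286.4 CPM in wild-type cells. The kinase genes Rps6ka1 (-1.54 and -1.22) and Rps6ka5 (-1.98 and -2.96) fell as well. Map2k7, a kinase of the Jnk branch, rose by 0.44 in clone 1 and 0.87 in clone 2 on the log2 scale. Elk3, an Srf partner, went opposite ways, at -0.14 and 0.44.

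Of 11 genes for proteins that bind AU-rich elements or turn these factors over, clone 1 had 4 higher and 4 lower and clone 2 had 5 higher and 4 lower, with 4 higher and 4 lower in both and medians of 0.10 and 0.19. The number lower in clone 1 was 2 without wild-type replicate 1, clone 1 replicate 2 or clone 1 replicate 3. Zfp36, whose protein triggers decay of AU-rich transcripts and is itself immediate-early, fell by 0.41 on the log2 scale in clone 1 and 1.03 in clone 2. Its relatives Zfp36l2 (0.73 and 0.49) and Zfp36l1 (0.72 and 0.22) rose, and Khsrp, another decay factor, had log2 fold changes of -0.56 and -0.52.

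Genes known as targets of AP-1 moved in both directions. Of 21 tested, clone 1 had 7 higher and 12 lower, clone 2 had 7 higher and 11 lower, and 7 were higher and 10 lower in both, with medians of -0.78 and -0.36. The matrix metalloproteinase genes Mmp10 (0.0795 CPM in clone 1 and 0.662 CPM in clone 2, against 7.49 CPM in wild-type cells) and Mmp13 (0.251 and 0.753 CPM, against 3.92 CPM) were among those that fell. The chemokine gene Ccl2 averaged 36.9 CPM in clone 1 and 132.0 CPM in clone 2, against 10.3 CPM in wild-type cells. Il6, a cytokine gene, had 262 counts in clone 1 and 1932 in clone 2, against 0 over the wild-type libraries, so that it was at least 92.3-fold higher in clone 1 and at least 609-fold higher in clone 2 when the wild-type group is set to a floor of 3 counts. That floor covers counting error only.

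Heat shock genes were read as a sign of acute stress. Of 10, clone 1 had 5 higher and 5 lower and clone 2 had 5 higher and 2 lower, with 4 higher and 1 lower in both and medians of -0.04 and 0.10. The number higher in clone 2 was 3 without wild-type replicate 1 or clone 2 replicate 2. Hspb1 rose by 1.25 in clone 1 and 2.64 in clone 2 on the log2 scale, and Hsph1 by 1.04 and 0.23. Hspa1a (1.08 and 0.21) and Hspa1b (1.11 and 0.22) are near-identical copies whose reads the counting may have split or shared. Dnajb1 (0.14 and -0.33) and Hspe1 (-0.29 and 0.39) were called in opposite directions, Dnajb1 with the signs of Ier2. Dnajb1 (chromosome 8, 83608193 to 83612653) lies within 2 Mb of Ier2. It is thus among the neighbours of Ier2, whose medians of 0.24 and -0.16 had the same signs.

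**Figure D5:**
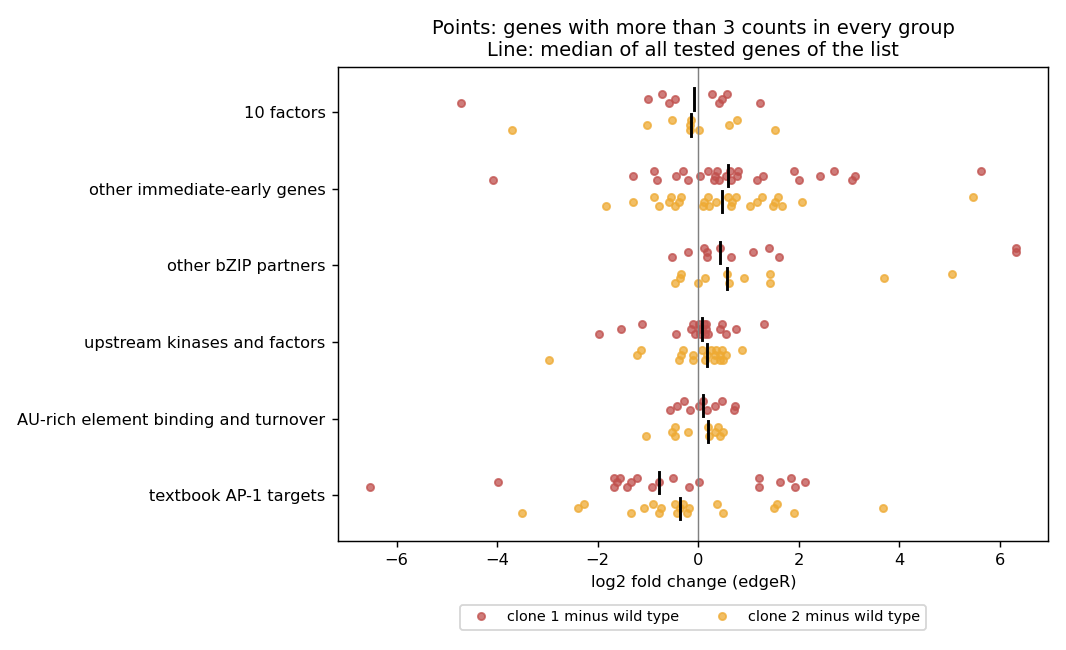
Log2 fold change (edgeR) of each gene in the 10 factors and 5 lists, for clone 1 and clone 2 against wild-type cells; points are genes with more than 3 counts in every group and black lines are the median of all tested genes of the list. Other immediate-early genes have medians of 0.60 and 0.48, the 10 factors lie on both sides of 0, and AP-1 targets have medians of -0.78 and -0.36.

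The genes whose levels over the 9 libraries were most like each factor, by Pearson r of log2 CPM among 9977 genes with a mean of at least 5 CPM, were read as a description. Fosl2 was closest to Scarb2 (r 1.0 after rounding; 192.4 CPM in clone 1, 128.4 CPM in clone 2 and 68.2 CPM in wild-type cells), Spry1 and Arid5b (0.999 each). Fosb was closest to Cdca8, Padi1 and H6pd (0.999 each), of which Padi1 averaged 0.737 CPM in clone 1 and 2.20 CPM in clone 2, against 96.9 CPM in wild-type cells. Jun was closest to Cubn (0.997), Mettl7a1 and Blnk (0.996 each), Jund to Myo18a, Kifc3 and Llgl1 (0.998 each) and Junb to Enc1 (0.995), Ndst1 and Srebf2 (0.991 each). Atf3 was closest to Rnf181 (0.996), Bid (0.995) and Tuba4a (0.993). Ier2 was closest to Cdc42ep4 and Anxa7 (0.990 each) and Dnajb1 (0.987), and Egr1 to Smarcc2 (0.982), Sp2 (0.977) and Bloc1s1 (0.971). Fosl1 was closest to Faf1 (0.990), Pex19 (0.988) and Ccdc91 (0.985), and Fos had the lowest of these values, with Prdm11 (0.966), Zfp777 (0.964) and Tmem120a (0.960). As the 9 libraries fall into 3 groups, any gene with the same order and spacing of the group means has a value near 1.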

How the data were processed

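The deposited values are raw counts per gene, whole numbers with no normalization, in 1 column per library for 9 libraries. Per the submitters' processing notes the tools were fastp, Subread and DESeq2 and the builds mm10 and GRCm38; the sources used here give no versions, annotation or strand setting. Symbols came from a RefSeq table (GRCm38.p6) for 24570 of 24594 Entrez IDs, and the other rows held 0.13 to 0.202% of a library's counts. Genes were kept by filterByExpr (minimum count 10), scaled by TMM and tested with edgeR 4.0.16 (R 4.3.3) in a quasi-likelihood model of 3 groups; the common coefficient of variation was 0.0878. The test script was first checked on simulated counts with known fold changes. Alternatives were DESeq2 1.42.0, other scalings, filters and samples, and a replicate block.

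The 10 members and the gene lists (immediate-early, bZIP, upstream, AU-rich, target, heat shock and marker genes) were chosen with earlier results of these data known. Named genes are the 10 factors and Sox10; per role or heat shock list, the 4 genes (or fewer) with the largest mean change among those called alike in both clones, and at most 2 whose calls oppose; and the 3 genes most like each factor. A gene that met this rule is not reported here; counts and medians of lists include it. Of the marker lists, genes are named for their role in the check of the cell type. Likeness used log2(CPM + 0.1). Same-numbered libraries of different groups deviated together (r 0.279 to 0.794 over 9769 genes, against -0.748 to 0.639 for other numbers), but these ranges overlap. Replicate 1 libraries were set apart, with r of 0.767, 0.779 and 0.794 among themselves. For replicates 2 and 3 the check did not settle the pairing. Wild-type replicate 3 had r 0.603 with clone 2 replicate 2 and 0.279 with clone 2 replicate 3. The labels do not say what a number shares. No library pair of a group agreed within sampling noise.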

Additional observations from a re-analysis of the deposited data

Results flagged for a closer look

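A difference between the knockout clones, tested as clone 2 minus clone 1 in edgeR, was found for 9 of the 10 factors. Over all tested genes 57.6% were called between the clones, so such a call is common in these libraries. On the log2 scale it was 2.52 for Atf3, 1.01 for Fosb, 0.55 for Fos and 0.48 for Fosl1, which were higher in clone 2. It was -0.79 for Ier2, -0.63 for Junb, -0.55 for Egr1, -0.47 for Fosl2 and -0.43 for Jund, which were lower in clone 2. For Fosb, Fosl2 and Jund both clones moved the same way against wild-type cells by different amounts, and for Atf3 and Ier2 they moved opposite ways. Each clone is a single clone, so a difference between them cannot be told apart from one that any pair of clones might show.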

How the results depend on the processing

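Under the alternatives tried, 100 of 102 counts of factors called stayed within 1.5 times their main value. The count of factors lower in clone 2 against wild-type cells, 3 in the main test, was 5 with the replicate block and 5 without replicate 1 of every group, where Junb (edgeR adjusted p = 0.000574 and 0.000171) and Egr1 (0.0202 and 0.039) passed as well. Of 510 fold changes, 495 kept direction and side of the threshold, 9 passed newly, 3 were lost and 3 changed sign. Junb in clone 2 also passed with DESeq2 (0.0473), RLE size factors (0.0497), total counts (0.024), the stricter filter (0.0297) and without wild-type replicate 1 (0.00358). The sign changes were Fosl1 in clone 2, with log2 fold changes of -0.01 under the stricter filter, -0.08 without wild-type replicate 1 and -0.06 without replicate 1 (-0.08 to 0.06 over all fits that left out libraries); the cause was not tested. The block changed no other call of a factor. Among the other lists, upstream genes lower in clone 2 numbered 7 with the block and without replicate 1. Depth limits Fosb most, with 20 to 70 counts per knockout library, and then Atf3 and Fos in clone 1, with 617 and 910 counts over its libraries.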
